A study of Mus musculus with 8 samples.

Results

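The genes of ubiquitin and SUMO attachment and removal were described in mouse neutrophils from B16 tumors by bulk RNA sequencing. Members were taken by symbol: the activating enzymes (Uba genes and Sae1), the conjugating enzymes (Ube2 genes), the Ube3 and TRIM ligases, the PIAS SUMO ligases, the SUMO modifiers, the SENP proteases and the USP and OTUD deubiquitinases. Of 18187 symbols in the table, 146 had such a name, with Usp18 and Trim30a left out by the rule, and 133 of them reached 10 or more counts in at least 3 of the 8 libraries. All 133 were also tested. The 13 below the minimum were Trim17, Trim37, Trim43a, Trim44, Trim46, Trim67, Ube2c, Ube2d2b, Ube2e2, Usp17ld, Usp20, Usp27x and Usp30. Just inside it, Senp8, Trim9 and Usp11 had 10 counts in 3 libraries, and just outside, Trim17, Ube2c and Usp30 had them in 2. The 133 include 31 Ube2, 40 Usp, 31 Trim, 7 Senp, 7 activating enzyme, 6 Otud, 4 Pias, 3 Sumo and 3 Ube3 symbols and 1 symbol of none of these families. The patterns also took symbols that encode no such enzyme, among them Usp6nl, a GTPase-activating protein, and the pseudogenes Ube2d-ps and Ube2n-ps1.

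The study compared neutrophils of B16 tumors under the treatment label aOX40 (3 libraries, replicates 1 to 3) with those under the label IgG (5 libraries, replicates 2 to 6). B16 is a mouse melanoma line, and OX40 is a receptor that costimulates T cells. The labels give no strain, age, dose, time or way of isolating the cells, and do not say whether each library came from its own animal, so the p-values here speak only of the spread among these 8 libraries, part of which may be technical. Library totals were 69.6 M to 73.5 M counts in aOX40 and 52.7 M to 63.2 M counts in IgG, so depth and treatment cannot be told apart. The genes with 10 or more counts numbered 12686 to 13311 in aOX40 libraries and 11349 to 12603 in IgG libraries. The factors used to scale between libraries were 1.07 to 1.27 in aOX40 and 0.87 to 0.98 in IgG. These ranges do not overlap either, so detection and treatment cannot be told apart. The 10 neutrophil markers listed summed to between 20035 and 26455 CPM (counts relative to library size, scaled between libraries) in aOX40 and between 20608 and 30257 CPM under IgG, against at most 760 and 694 CPM for 7 macrophage and monocyte markers, 3.70 and 2.56 CPM for 6 T cell markers and 9.07 and 15.4 CPM for 6 melanoma markers. In bulk RNA, fewer cells of a type and less RNA per cell cannot be told apart.

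Ubiquitin is joined to proteins in a relay. An activating enzyme (E1) charges it, a conjugating enzyme (E2) carries it, and a ligase (E3) chooses the substrate, while deubiquitinases take it off. SUMO, NEDD8 and the interferon-induced ISG15 are related modifiers with E1 and E2 enzymes of their own. In myeloid cells these chains control NF-kB signalling, antiviral sensing and protein turnover, and several TRIM ligases are induced by interferon.

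Few members differed between the treatments, and their share was near that of all genes. Of 133 members, 4 were higher in aOX40 and 3 were lower at an adjusted p below 0.05 (edgeR's quasi-likelihood test with Benjamini-Hochberg adjustment over 13278 genes). That is 5.26% of members, against 5.65% of all genes tested (2.64% higher, 3.00% lower). The groups did not overlap in 20 members, 15% against 16% of all genes; 14 were higher and 6 lower, where 8.22% and 7.75% of all genes were. An unadjusted p below 0.05 was found for 31 members, 23.3% against 24.8% of all genes. The members that rose were Uba2 and Sae1, which together form the SUMO-activating enzyme, the NEDD8 protease gene Senp8 and the ligase gene Trim9. Senp8 and Trim9 reached the count minimum through aOX40 libraries alone, so a difference was built into their being members and their calls are no support. Those that fell were the nucleolar deubiquitinase gene Usp36 and the ligase genes Trim30c and Trim56. The median log2 fold change, aOX40 over IgG, was 0.01 over members and 0.05 over all genes. With aOX40 replicate 2 left out no call remained, 0 members and 0 genes in all by edgeR (21 members and 2230 genes had an unadjusted p below 0.05). Leaving out aOX40 replicate 3 left 1 member called, Usp36, and 59 of 14167 genes in all. When libraries were scaled by total counts alone, the all-gene median shifted by 0.30. Then 11 members were higher and 2 lower, beside 874 and 246 of 13278 genes (78.0% of all calls higher, against 46.8%).

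**Figure D1:**
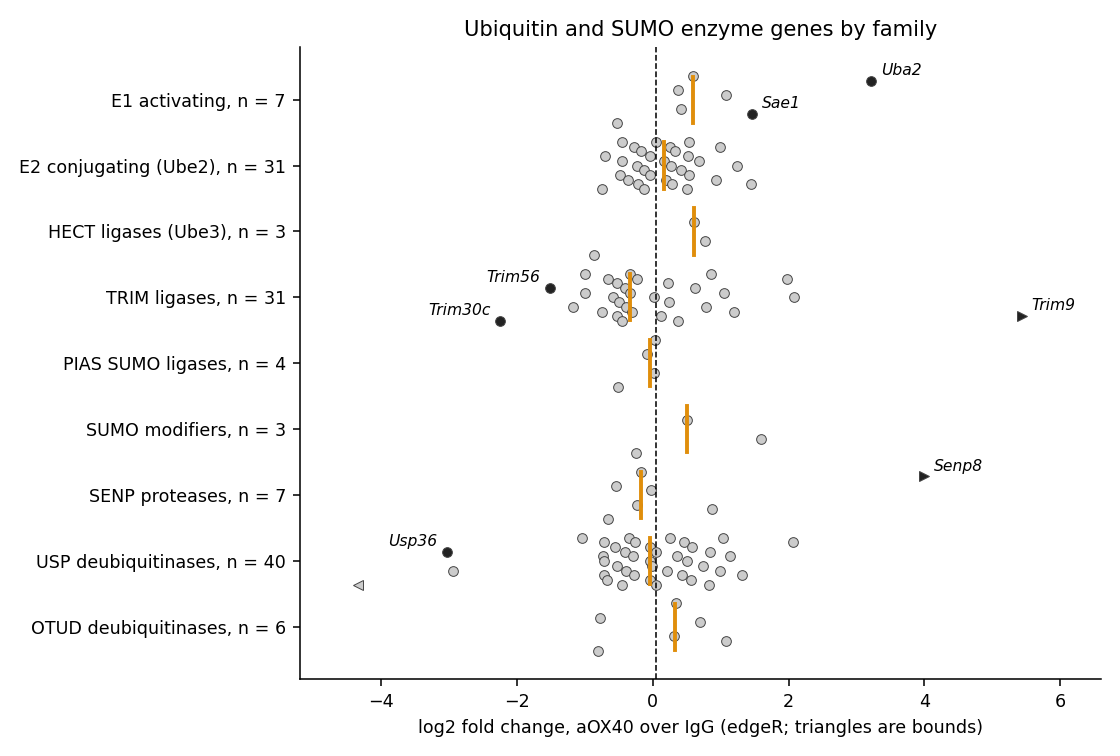
Log2 fold change, aOX40 over IgG, of 132 of the 133 members (points, horizontal axis) in 9 families (rows), with called members filled and named, the family median as an orange bar and the median of all genes tested as a dashed line. Triangles are lower bounds on the size of the change for 3 genes at 0 counts in all libraries of a group; the USP row includes Usp6nl, and the family medians lie between -0.33 (TRIM) and 0.60 (Ube3).

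Members at a higher level varied less between libraries. The coefficient of variation between libraries had a median of 15.3% in aOX40 and 18.7% in IgG for the 29 members at a mean of 50 CPM or more, and of 38.7% in aOX40 and 63.9% in IgG for the 48 members between 1 and 10 CPM. Of all members, 59 had a mean under 10 CPM and 11 a mean under 1 CPM. Per kilobase of the longest annotated transcript, the highest member was Ube2b, a conjugating enzyme of DNA damage tolerance, at a level of 150 CPM per kilobase in aOX40 and 206 in IgG. Ube2l6, the ISG15-conjugating enzyme, was also among the highest, at 126 CPM per kilobase in aOX40 and 79.0 in IgG. Ube2d3 had a higher CPM than both, but its longest transcript is 19.3 kilobases. It was at 31.6 CPM per kilobase in aOX40 and 35.6 in IgG, so the order may depend on the transcript chosen.

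Among the activating enzymes, both subunits of the SUMO E1 were higher in aOX40. Uba2 carries the catalytic cysteine and lies on chr7:34140688-34169599 (minus strand, mm10). It stood at 13.7, 23.9 and 22.2 CPM under aOX40, against 0, 5.62, 2.36, 0.75 and 2.14 CPM under IgG replicates 2 to 6. Every aOX40 library lay above every IgG library, and IgG replicate 2 had no count of Uba2. That library also had the fewest genes with 10 or more counts (11349). The log2 fold change was 3.21 (SE 0.54, adjusted p = 0.0144, edgeR). Sae1, its partner subunit, lies on chr7:16320234-16387806 (minus strand) and was at 11.1, 12.5 and 10.2 CPM under aOX40, against 6.46, 3.65, 1.95, 3.18 and 5.44 CPM under IgG. These groups did not overlap either, and the difference on the log2 scale was 1.46 (SE 0.36, adjusted p = 0.0437, edgeR). Under the other form of edgeR's quasi-likelihood fit, the default of this version, neither subunit passed (adjusted p = 0.162 for Uba2 and 0.103 for Sae1). Uba2 also lost its call without aOX40 replicate 2 (edgeR adjusted p = 0.0824) or 3 (0.0540) and with limma voom (0.0541), and Sae1 without any 1 of aOX40 replicates 1 to 3 and IgG replicates 3 to 6 (0.0604 to 0.176).

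The log2 ratio of Uba2 to Sae1 within a library was 0.30, 0.94 and 1.12 in aOX40, against -9.30, 0.62, 0.27, -2.07 and -1.34 in IgG, where the lowest value is that of the library with no Uba2 count. The groups overlapped, and the mean difference of 3.15 gave p = 0.0714 in the exact two-sided permutation test (0.119 adjusted over 5 ratios), so the unequal size of the changes was not resolved. Without IgG replicate 2 the mean difference was 1.42.

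The other activating enzymes did not pass. Uba3, the catalytic subunit of the NEDD8 E1, was at 15.9, 16.1 and 13.1 CPM under aOX40, against 4.10, 11.7, 5.75, 7.98 and 6.11 CPM under IgG. The groups did not overlap, but the log2 fold change of 1.07 (SE 0.33) had an adjusted p of 0.0775 (edgeR). DESeq2 and scaling by total counts called it (0.0467 and 0.0405). Its ratio to Nae1, the regulatory subunit of that enzyme, did not differ beyond the spread (mean difference 0.75 on the log2 scale, exact two-sided permutation p = 0.107). Uba1, the main ubiquitin E1, averaged 60.9 ± 16.9 CPM under aOX40 and 45.9 ± 12.9 CPM under IgG (SD, n = 3 and 5), a log2 fold change of 0.41 (adjusted p = 0.402, edgeR). Uba6, the other ubiquitin E1, averaged 5.25 ± 1.05 CPM under aOX40 and 3.45 ± 3.17 CPM under IgG. Uba7, the ISG15 E1, lay on the other side, at 55.9 ± 22.8 CPM under aOX40 and 80.4 ± 23.9 CPM under IgG (log2 fold change -0.52, adjusted p = 0.347, edgeR). Of the 7 activating enzyme genes, 2 were higher and 0 lower (28.6% called, against 5.65% of all genes), and the median log2 fold change was 0.59. That median was 1.01 without IgG replicate 4, 1.15 with limma voom, 0.90 with total counts alone and 0.98 with the replicate block. It was lower without IgG replicate 2 (0.42) and without aOX40 replicate 2 (0.45).

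**Figure D2:**
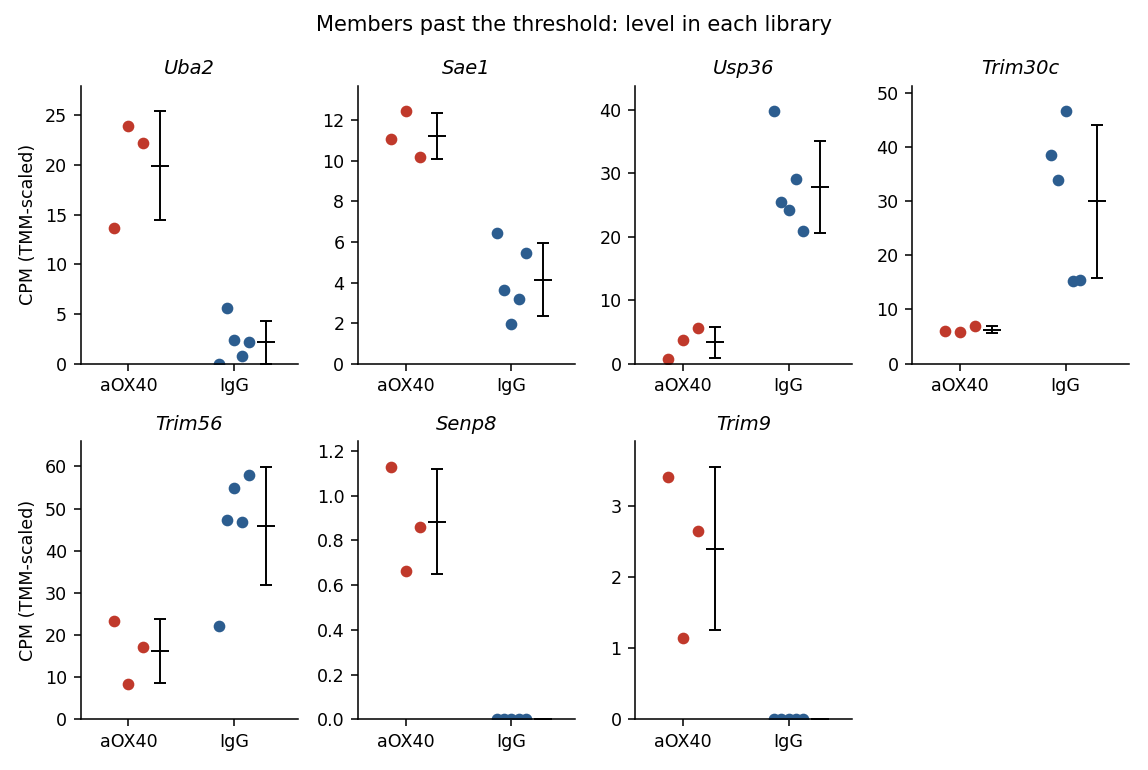
Level (CPM, scaled between libraries, vertical axes from 0) of the 7 called members in each of the 3 aOX40 and 5 IgG libraries (points), with the mean and SD beside them. The groups overlap only for Trim56, and Senp8 and Trim9 are at 0 in every IgG library.

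Among the modifiers, no member passed in edgeR. Sumo2 was at 72.4, 62.8 and 57.3 CPM under aOX40, against 34.2, 45.8, 45.4, 56.8 and 44.4 CPM under IgG, without overlap but with an adjusted p of 0.176 (log2 fold change 0.50, SE 0.21, edgeR). Sumo3, whose protein is nearly the same as that of Sumo2, was at 13.2, 38.1 and 36.5 CPM under aOX40, against 9.91, 9.88, 1.99, 12.2 and 14.5 CPM under IgG. For Sumo3 only aOX40 replicate 1 lay within the IgG range, and the log2 fold change of 1.59 (SE 0.47) had an adjusted p of 0.0701 (edgeR). Without aOX40 replicate 1 it passed (0.0479), and so it did with total counts alone (0.0407) or among genes with 10 counts in every library (0.0461).

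None of the 4 SUMO ligases of the PIAS family passed in edgeR (0 at an unadjusted p below 0.05, 0 called by DESeq2). Pias1 averaged 102 ± 12.6 CPM under aOX40 and 99.5 ± 23.2 CPM under IgG, and Pias4 averaged 40.6 ± 5.46 CPM under aOX40 and 43.0 ± 9.62 CPM under IgG (SD, n = 3 and 5). The log2 fold changes of the 4 Pias genes ran between -0.51 for Pias3 and 0.04 for Pias1, and their sign depended on the scaling for Pias1, Pias2 and Pias4. Beyond the members, of the 79 other genes of the pathway that were listed, 74 were tested, 0 were higher and 2 were lower (2.70% against 5.65% of all genes), and these were Ranbp2 and Zmiz1. Ranbp2, a nuclear pore protein with SUMO ligase activity, was at 47.7, 31.0 and 46.7 CPM under aOX40, against 175, 101, 198, 106 and 107 CPM under IgG (log2 fold change -1.72, SE 0.31, adjusted p = 0.0163, edgeR). Zmiz1, a PIAS-like coregulator, was at 13.7, 10.1 and 21.5 CPM under aOX40, against 49.5, 44.4, 32.8, 48.1 and 25.9 CPM under IgG (-1.42, SE 0.33, adjusted p = 0.0347, edgeR). Neither overlapped between the groups. Ranbp2 lost its call without aOX40 replicate 2 or 3 (0.115 and 0.0663), and Zmiz1 without any 1 of aOX40 replicates 1 to 3 and IgG replicates 2, 3 and 5 (0.0544 to 0.172) and with total counts alone (0.0560). Zmiz1 shares exon sequence with Zmiz1os1 on the other strand, so reads of the pair may be mixed.

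The SUMO proteases did not pass. Senp2 was at 53.0, 39.8 and 52.2 CPM under aOX40, against 112, 86.1, 78.5, 59.9 and 46.0 CPM under IgG, and the log2 fold change was -0.66 (SE 0.29, adjusted p = 0.187, edgeR). Senp1, Senp3 (whose reads could be split with a near copy, Gm6580), Senp5, Senp6 and Senp7 had adjusted p-values between 0.324 and 0.981 (edgeR). Senp8 is grouped with them by sequence but removes NEDD8, not SUMO. It had 84, 59 and 69 counts in the aOX40 libraries and 0 in each IgG library, or 1.13, 0.66 and 0.86 CPM against 0. Against a floor of 3 counts in each IgG library (0.0555 CPM), Senp8 was at least 15.9-fold higher in aOX40 (adjusted p = 0.0320, edgeR). It reached the count minimum through the aOX40 libraries alone and lost its call without any 1 of the 3 aOX40 libraries (0.0688 to 0.134) and with no filter on low counts (0.0774). Senp8 lies on chr9:59734259-59750710 (minus strand).

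**Figure D3:**
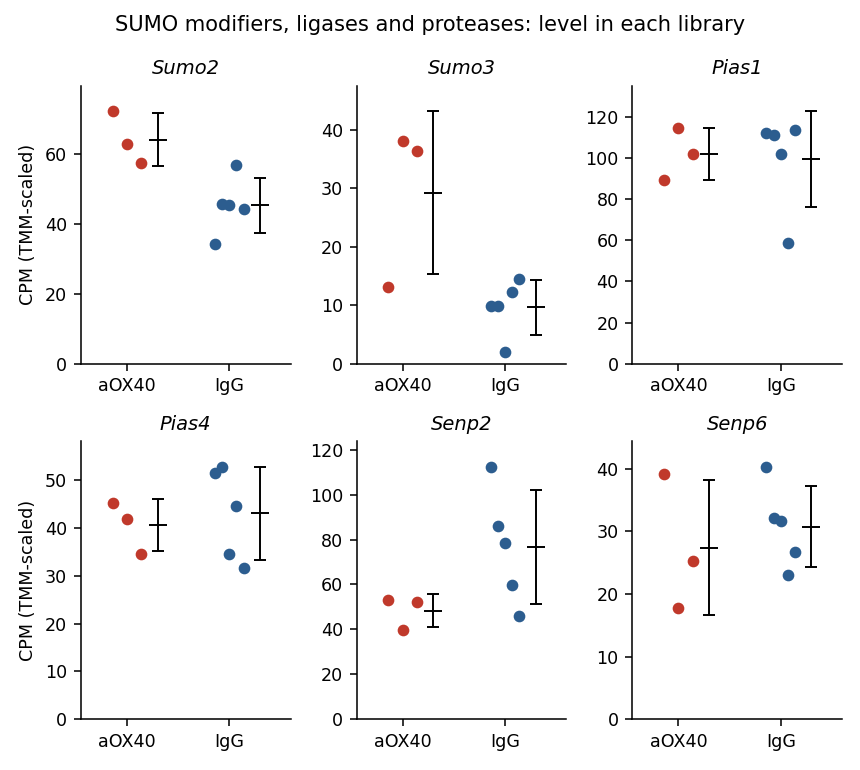
Level (CPM, scaled between libraries, vertical axes from 0) of 6 SUMO pathway members in each of the 3 aOX40 and 5 IgG libraries (points), with the mean and SD beside them. Of these 6, only Sumo2 has no overlap between the groups, and none passed the test.

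Of the 31 conjugating enzyme symbols, 0 passed in edgeR, against 5.65% of all genes, and 5 had an unadjusted p below 0.05 (16.1%, against 24.8% of all genes). DESeq2 called 5 of the 31 (Ube2r2, Ube2l6, Ube2e3, Ube2g1 and Ube2h), where it called 1457 of 13278 genes. The median log2 fold change of the 31 was 0.17. Those nearest to the threshold were mostly higher in aOX40. Ube2r2, which works with cullin ligases, was at 86.5, 72.8 and 63.0 CPM under aOX40, against 20.7, 42.1, 47.5, 38.3 and 37.8 CPM under IgG (log2 fold change 0.99, SE 0.26, adjusted p = 0.0509, edgeR). Ube2l6 was at 184, 213 and 193 CPM under aOX40, against 132, 147, 112, 114 and 112 CPM under IgG (0.68, SE 0.18, adjusted p = 0.0522, edgeR), and DESeq2 and limma voom called it (0.00150 and 0.0370). Ube2r2 was called by DESeq2 and limma voom as well, and neither gene overlapped between the groups. Ube2e3 and Ube2g1 did not overlap either, with log2 fold changes of 1.23 and 0.94 (adjusted p = 0.0721 and 0.0871, edgeR). For Ube2e3, aOX40 replicate 1 stood highest, at 37.4 CPM. The other aOX40 libraries were at 14.5 and 13.2 CPM, and IgG libraries at no more than 10.8 CPM. Ube2h, at 53.9 ± 10.4 CPM under aOX40 and 87.6 ± 16.9 CPM under IgG, had the lowest p among those below 0 (-0.70, adjusted p = 0.0973, edgeR). Ube2q2 had the largest fold change of the family (1.45, SE 0.70, adjusted p = 0.227), at 7.35, 13.3 and 8.11 CPM under aOX40, against 9.11, 5.85, 0.26, 3.03 and 0 CPM under IgG.

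Ube2d3, a broadly acting enzyme with the highest CPM of the family, averaged 610 ± 61.0 CPM under aOX40 and 687 ± 51.7 CPM under IgG (log2 fold change -0.17, SE 0.17). Ube2b, the next by CPM, averaged 269 ± 46.8 CPM under aOX40 and 369 ± 71.2 CPM under IgG (-0.46, adjusted p = 0.210, edgeR). Ube2n, which builds lysine-linked signalling chains together with Ube2v1, averaged 148 ± 38.6 CPM under aOX40 and 152 ± 18.4 CPM under IgG (-0.04, SE 0.21). The ratio of Ube2v1 to Ube2n differed by 0.71 on the log2 scale and did not pass (exact two-sided permutation p = 0.143). Ube2v1 overlaps exons of Gm20431 on the same strand and Gm11476 on the other, so part of its reads may be theirs. Summed over the 31 symbols, the level was 2484 ± 109 CPM under aOX40 and 2500 ± 128 CPM under IgG (SD, n = 3 and 5).

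Of the 40 Usp symbols 1 passed, 2.5% against 5.65% of all genes. Usp36, a deubiquitinase of the nucleolus that acts in ribosome production, lies on chr11:118259651-118290244 (minus strand). It was at 0.74, 3.70 and 5.66 CPM under aOX40, against 39.8, 25.4, 24.2, 29.1 and 20.8 CPM under IgG. All aOX40 libraries lay well below all IgG libraries, and the log2 fold change was -3.02 (SE 0.46, adjusted p = 0.00998, edgeR). Its call was kept in 16 of 18 alternative analyses and was lost without aOX40 replicate 2 (0.0741) and with the replicate number as a block (0.238). Usp7, which deubiquitinates p53 and its ligase, was at 11.9, 14.4 and 16.3 CPM under aOX40, against 28.1, 16.2, 22.2, 27.3 and 23.7 CPM under IgG, and did not pass (-0.72, SE 0.26, adjusted p = 0.122, edgeR). DESeq2 called it (0.0483). Usp32 had no overlap, at 17.1 ± 0.99 CPM under aOX40 and 28.2 ± 6.94 CPM under IgG (-0.72, adjusted p = 0.121, edgeR), and DESeq2 called it.

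Usp11 had no count in the aOX40 libraries and 0, 1.06, 1.84, 0.86 and 0 CPM under IgG, so it was at least 20.3-fold lower in aOX40 by the mean against a floor of 3 counts per library, but IgG libraries also lacked it and it did not pass in edgeR (adjusted p = 0.123). DESeq2 called it (0.0283). It reached the count minimum through IgG libraries alone. Usp25, the Usp gene with the highest mean CPM, averaged 66.3 ± 27.6 CPM under aOX40 and 68.1 ± 11.5 CPM under IgG. None of the 6 Otud deubiquitinases passed in edgeR (0 at an unadjusted p below 0.05, 0 called by DESeq2), and Otud5, a regulator of interferon signalling, was at 68.1 ± 20.2 CPM under aOX40 and 54.6 ± 5.64 CPM under IgG (0.32, adjusted p = 0.414). Otud1, at 2.34 ± 1.64 CPM under aOX40 and 4.14 ± 3.81 CPM under IgG, had a fold change whose sign changed with limma voom, and Otud6b had the largest change of the family (1.07, SE 0.72, adjusted p = 0.389).

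Among ligases of the Ube3 group none of 3 passed in edgeR (1 at an unadjusted p below 0.05, 0 called by DESeq2). Ube3b was at 8.22 ± 2.59 CPM under aOX40 and 15.1 ± 5.00 CPM under IgG (log2 fold change -0.87, adjusted p = 0.158, edgeR), and Ube3a, the ligase lost in Angelman syndrome, at 15.4 ± 4.33 CPM under aOX40 and 10.1 ± 2.59 CPM under IgG (0.60, adjusted p = 0.246, edgeR). Ube3a overlaps 3 genes on the other strand, so part of its reads may be theirs. In all, 30 of the 133 members overlap exons of another counted gene.

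Of the 31 TRIM ligases, 1 was higher and 2 were lower (9.68% against 5.65% of all genes), and the higher one, Trim9, reached the count minimum through aOX40 libraries alone. The median log2 fold change was -0.33, and it was -0.06 without aOX40 replicate 3, -0.14 without IgG replicate 2, -0.19 with the replicate block and -0.04 with total counts alone. Trim30c, of the Trim30 group on chromosome 7, was at 6.09, 5.81 and 7.0 CPM under aOX40, against 38.5, 33.9, 46.6, 15.3 and 15.5 CPM under IgG. The aOX40 libraries lay close together and below all IgG libraries, of which replicates 5 and 6 were lowest. The log2 fold change was -2.24 (SE 0.44, adjusted p = 0.0210, edgeR), and the call was lost without any 1 of the 3 aOX40 libraries (0.0578 to 0.122). Trim56, which promotes cytosolic nucleic acid sensing, lies on chr5:137105644-137116209 (minus strand) and was at 23.2, 8.28 and 17.2 CPM under aOX40, against 22.2, 47.4, 54.9, 46.7 and 58.0 CPM under IgG. It overlapped through IgG replicate 2, and its log2 fold change of -1.51 (SE 0.39) had an adjusted p of 0.0469 (edgeR). That call was lost in 12 of 18 alternatives, among them the default quasi-likelihood fit (0.0942), total counts alone (0.0607) and the omission of any 1 of aOX40 replicates 1 to 3 and IgG replicates 3 to 6 (0.0549 to 0.200).

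Trim9, a ligase best known in neurons, had 253, 102 and 212 counts in the aOX40 libraries, or 3.40, 1.14 and 2.64 CPM, and 0 in every IgG library. Against the floor of 3 counts per IgG library it was at least 43.2-fold higher in aOX40 (adjusted p = 0.0386, edgeR). Like Senp8 it reached the count minimum through aOX40 libraries alone, and without any 1 of the 8 libraries it did not pass (0.0514 to 0.115). Trim8, a regulator of cytokine signalling, was at 29.0, 33.4 and 61.1 CPM under aOX40, against 14.2, 19.4, 22.6, 22.3 and 20.4 CPM under IgG, without overlap (log2 fold change 1.05, SE 0.29, adjusted p = 0.0555, edgeR). Unlike edgeR, DESeq2 called Trim8.

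Of the 16 members listed as interferon-inducible, 2 were lower (Trim30c and Trim56) and 0 were higher, 12.5% against 3.00% of all genes in the lower direction. Their median log2 fold change was -0.43, and 13 of 16 were below 0. With total counts alone 11 of 16 were below 0, with a median of -0.13. Trim25, the ligase that works with the viral RNA sensor RIG-I, was at 106, 126 and 126 CPM under aOX40, against 193, 183, 148, 203 and 214 CPM under IgG. It had no overlap and a log2 fold change of -0.66 (SE 0.19), with an adjusted p of 0.0683 in edgeR and 0.00243 in DESeq2. Trim21, an antibody receptor of the cytosol, was at 23.0 ± 2.87 CPM under aOX40 and 28.9 ± 6.98 CPM under IgG (-0.33, adjusted p = 0.463, edgeR). Ube2l6 was on the other side, as given above, so the ISG15 enzymes Uba7 and Ube2l6 had fold changes of opposite sign, neither past the threshold. The list was chosen with earlier results of these libraries known, so its direction is no independent evidence. Sums of cell type markers overlapped between the groups. For 3 fibroblast markers they were 1.22 to 3.63 CPM under aOX40 and 3.45 to 32.4 CPM under IgG. Only 1 of the 3 was tested, and it was called lower. For 7 macrophage and monocyte markers they were 498 to 760 CPM under aOX40 and 332 to 694 CPM under IgG, with 1 called higher. Of 10 neutrophil markers 2 were called higher, where 2.64% of all genes were. Of the T cell and melanoma markers, 3 and 5 were tested and 0 were called. None of these markers was at 0 in all libraries, and their part in the result was not tested.

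**Figure D4:**
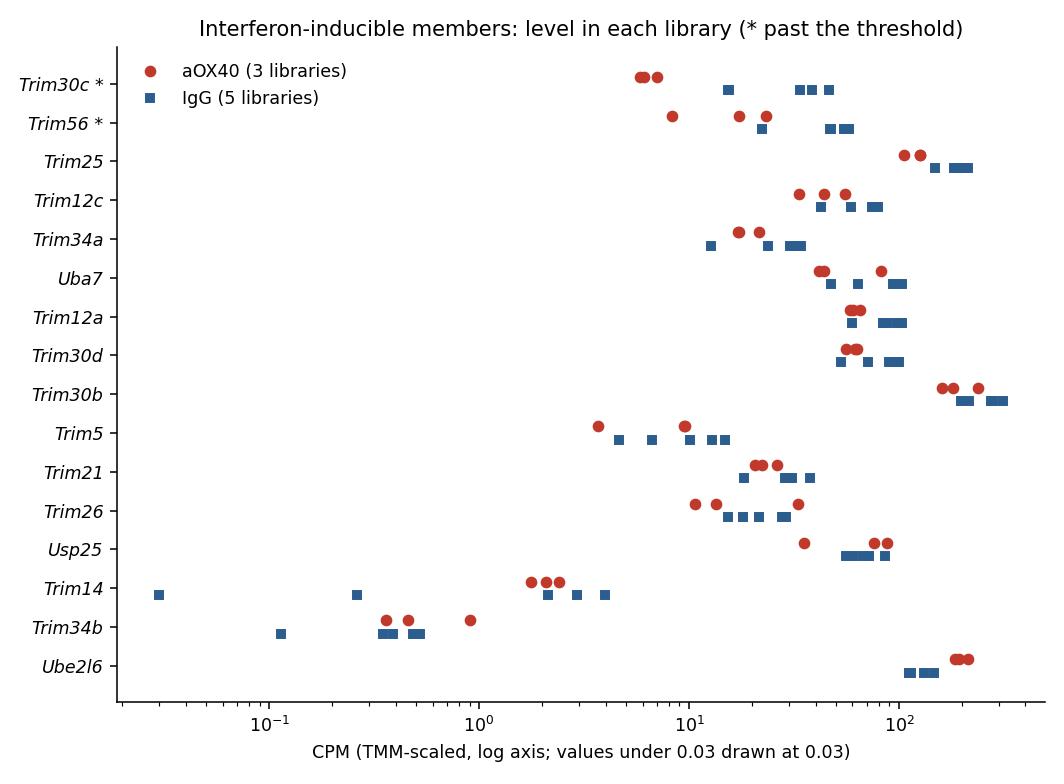
Level (CPM, scaled between libraries, log axis) of the 16 interferon-inducible members in each aOX40 library (red circles, upper row of each gene) and IgG library (blue squares, lower row). The genes are ordered by log2 fold change with the lowest at the top: Trim30c lies apart to the left in aOX40, Trim56 overlaps through 1 IgG library, and Ube2l6 lies to the right.

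Of the TRIM members, 9 lie in a stretch of 289.1 kb of chromosome 7 (chr7:104218793-104507849): Trim6, Trim34a, Trim5, Trim12a, Trim34b, Trim12c, Trim30b, Trim30c and Trim30d. Trim30c (chr7:104382065-104400837) was the only one of the 9 called, where 5.65% of all genes were. All of the 9 but Trim6 are also on the interferon-inducible list above, so the counts below 0 share these genes and are not separate results. Of the 9, 8 were below 0, as were 6351 of all 13278 genes, and the median log2 fold change was -0.46. With total counts alone 7 were below 0 and the median was -0.16. Trim30b, with the highest mean CPM of the TRIM genes, was at 193 ± 40.0 CPM under aOX40 and 256 ± 47.8 CPM under IgG (-0.41, adjusted p = 0.281, edgeR). Trim12c was at 44.2 ± 10.9 CPM under aOX40 and 65.9 ± 15.2 CPM under IgG (-0.58, adjusted p = 0.205), Trim30d at 60.2 CPM under aOX40 and 82.5 CPM under IgG (-0.46), and Trim34a at 18.6 ± 2.49 CPM under aOX40 and 26.8 ± 8.87 CPM under IgG (-0.53, adjusted p = 0.333). Trim34a has a near copy in Trim34b, so reads could be split between them.

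Promoter windows from RefSeq (GRCm38.p6, 250 bases before to 50 after the start site) are shown for 4 genes of this cluster, because Trim30c is the called gene and the other three hold the core of the interferon-stimulated response element. The core was searched on both strands as GAAA, any 2 bases and GAAA again, which reads TTTC, any 2 bases and TTTC on the other strand. Capitals mark it, and Trim30c has none in its window. Of the cluster genes not shown, Trim30b and Trim34b have none either and were not called, while Trim5 and Trim12a hold it.
Trim30c (chr7:104400729-104401028, minus strand): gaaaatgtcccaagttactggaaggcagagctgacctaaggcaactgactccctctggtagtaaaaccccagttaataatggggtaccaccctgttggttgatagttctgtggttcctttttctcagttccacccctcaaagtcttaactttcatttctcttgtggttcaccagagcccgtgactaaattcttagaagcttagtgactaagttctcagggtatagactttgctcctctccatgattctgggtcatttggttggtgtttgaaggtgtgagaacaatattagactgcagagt
Trim30d (chr7:104507800-104508099, minus strand): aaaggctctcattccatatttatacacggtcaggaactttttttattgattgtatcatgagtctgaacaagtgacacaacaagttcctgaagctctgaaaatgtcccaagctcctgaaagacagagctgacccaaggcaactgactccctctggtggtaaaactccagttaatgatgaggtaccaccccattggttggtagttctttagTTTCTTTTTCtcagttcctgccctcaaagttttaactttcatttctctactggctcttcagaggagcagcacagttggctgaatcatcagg
Trim12c (chr7:104353300-104353599, minus strand): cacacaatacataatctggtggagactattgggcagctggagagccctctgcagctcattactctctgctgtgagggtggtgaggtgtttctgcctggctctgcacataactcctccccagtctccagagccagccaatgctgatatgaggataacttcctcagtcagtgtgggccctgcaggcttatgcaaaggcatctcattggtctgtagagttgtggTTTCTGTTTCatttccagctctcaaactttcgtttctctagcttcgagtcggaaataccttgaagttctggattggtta
Trim34a (chr7:104244207-104244506, plus strand): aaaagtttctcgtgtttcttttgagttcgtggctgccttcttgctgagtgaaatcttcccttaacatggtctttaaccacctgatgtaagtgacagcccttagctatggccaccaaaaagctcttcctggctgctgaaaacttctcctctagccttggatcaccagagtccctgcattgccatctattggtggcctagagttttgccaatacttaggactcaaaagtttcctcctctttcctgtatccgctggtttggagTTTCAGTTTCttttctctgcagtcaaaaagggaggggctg
The core occurred in 3.44% of 32851 promoter windows of the same length. Of 100 members with a window, 8 held it, and 7 of these 8 are among the 15 interferon-inducible members with a window: Trim5, Trim12a, Trim12c, Trim21, Trim26, Trim30d and Trim34a. The called Trim30c and Trim56 do not hold these letters in their windows. A match of letters is a description and not a bound site.

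Ubb, a gene of ubiquitin itself, was not called. It was at 4517 ± 867 CPM under aOX40 and 7343 ± 1536 CPM under IgG, without overlap (log2 fold change -0.70, SE 0.22, adjusted p = 0.0867, edgeR). The NEDD8 gene itself, Nedd8, was at 34.4 ± 7.38 CPM under aOX40 and 37.5 ± 8.56 CPM under IgG (-0.13, adjusted p = 0.801, edgeR).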

How the data were processed

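The series holds 8 RNA sequencing libraries of mouse neutrophils, grouped by the treatment and replicate number in the sample titles. The authors deposited estimated counts per gene symbol, not scaled between libraries; 63.4% of values were whole within 0.01 and the rest carry fractions from a step not given in the sources used here. Per the submitters' processing notes, STAR 2.6.0, Subread and featureCounts 1.5.1 were used with build mm10; their settings, the strand rule and the annotation are unstated in those notes.

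Counts were rounded, filtered with filterByExpr by group, scaled with TMM factors and compared with edgeR 4.0.16 (limma 3.58.1, R 4.3.3) by the quasi-likelihood F test, group as the only term, legacy=FALSE, with Benjamini-Hochberg adjustment over 13278 genes and a threshold of 0.05. Standard errors were derived from the F statistic. The setting legacy=FALSE was kept from an earlier account of this table; the default was added after the data were seen. The biological coefficient of variation was 84.7%. Ratios used counts + 0.5 and an exact two-sided permutation test over 56 splits. Alternatives were other scalings and filters, DESeq2 1.42.0, limma voom, each library left out and the replicate number as a block. The procedure was tested on simulated data, with changes placed only in genes at a higher mean CPM. That run does not cover the lower levels of Uba2, Sae1, Senp8 and Trim9.

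Positions and transcript lengths came from GENCODE M21 (GRCm38, that is mm10), where 133 of 133 members were placed. Near copies were sought with BLAST 2.17.0 (at least 95% identity over 50% of the longest transcript) among named members. Some members and ratios are not reported here. The members, lists and tests were chosen with earlier results of these data known. Genes named were all called members, a fixed list and called genes of the wider pathway. In each family the member with the highest mean CPM and the one with the largest fold change were named too. Other genes fall outside these rules, such as Ube2b, Ubb, Nedd8 and genes near the threshold or in the chromosome 7 cluster. They were chosen after their values were seen.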

Additional observations from a re-analysis of the deposited data

Results flagged for a closer look

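Among 36 named members with any spread in IgG, the IgG library farthest from its group stood apart by Dixon's criterion for 1 gene. Pias1 was at 58.7 CPM under IgG replicate 5, while the other 4 IgG libraries lay between 102 and 113 CPM and the aOX40 libraries between 89.2 and 114 CPM. Chance flags about 1 in 20 such groups.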

How the results depend on the processing

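Fold changes of the 7 called members and of Ranbp2 and Zmiz1 kept their sign in every alternative where they were tested (17 or 18 each), but their calls did not. The number of genes called was 750 of 13278 tested. It became 1120 with total counts alone, 724 with limma voom, 1457 with DESeq2 and 320 with the default quasi-likelihood fit. With no filter on low counts it was 452 of 18187 genes, and with 10 counts in every library 937 of 8843. The replicate block left 0 (2594 at an unadjusted p below 0.05), and leaving out 1 library gave 0 to 589. The member and family counts that follow are to be read beside these totals. Of 133 members, the 7 called became 13 with total counts alone, 3 with no filter, 18 with DESeq2 and 4 with the default fit. They became 9 of 107 tested with 10 counts in every library, 0 with the block and 0 to 6 with 1 library left out. Activating enzymes (2) became 1 with no filter, with the filter of 10 counts in every library and with limma voom, 0 with the default fit and the block, and 0 to 2 with 1 library left out. Usp members (1) became 4 with DESeq2, 0 with the block and 0 to 2 with 1 library left out. Senp members (1) became 0 with no filter, the filter of 10 counts in every library and the block, and 0 to 1 with 1 library left out. Trim members (3) became 1 with no filter, 5 with DESeq2, 0 with the block and 0 to 2 with 1 library left out. The other families (0) became 5 with total counts alone, 4 with the filter of 10 counts in every library, 5 with DESeq2, 2 with limma voom and 0 to 1 with 1 library left out. Interferon-inducible members (2) became 1 with no filter, 4 with DESeq2, 1 with the default fit, 0 with the block and 0 to 2 with 1 library left out. Other pathway genes (2) became 4 with total counts alone, 1 with no filter, 10 with DESeq2, 1 with the default fit, 0 with the block and 0 to 3 with 1 library left out. The filter that takes 10 counts in every library tests fewer genes and leaves out Senp8, Trim9 and Uba2; for the other changes the cause was not tested.

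Fold changes near 0 changed sign. With total counts alone the values were 0.21 for Pias4, 0.11 for Senp6, 0.14 for Ube2d3, 0.25 for Ube2n and 0.28 for Usp25. With upper quartile factors they were -0.0215 for Pias1 and -0.0402 for Pias2, and with limma voom 0.0065 for Otud1. Pias2 was at -0.0030 with RLE factors, -0.0252 with DESeq2 and -0.0043 with the default fit. With the replicate block they were 0.18 for Otud1, -0.0479 for Pias1, -0.27 for Pias2, 0.33 for Senp3 and 0.11 for Usp25. With 1 library left out the ranges were -0.11 to 0.13 for Pias1, -0.18 to 0.31 for Pias2, -0.18 to 0.0262 for Pias4, -0.51 to 0.0710 for Senp6, -0.26 to 0.12 for Ube2n and -0.28 to 0.27 for Usp25.

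Only replicate numbers 2 and 3 occur in both groups. Same-numbered libraries did not deviate together (correlations of 0.02 and 0.05), so the numbers are not taken to pair the libraries, and with the replicate block 0 members were called. That fit compares the treatments only within numbers 2 and 3, so the loss of calls with it cannot decide whether they hold.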
